A study of Sus scrofa with 12 samples.

Results

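The genes described here are Toll-like receptors TLR1, TLR2, TLR3, TLR4, TLR5, TLR8 and TLR9, the intracellular receptors NOD1 and NOD2, and MYD88, the adaptor that most Toll-like receptors share. They were chosen by name, and every entry of the gene table that carried one of these names was summed per gene. Of the 10 genes listed, 8 were found, in 10 of the 41264 entries of the table, while TLR1 and NOD2 were not analysed here. The table holds 17049 gene names in all, and 17650 of its entries carry no gene name. The values are FPKM, fragments scaled by transcript length and by the mapped total of the library, so levels can be set side by side between genes. No further scaling between libraries is stated, and after a median-of-ratios rescaling the median weaning difference of all gene names in resveratrol litters was 0.01 on the log2 scale in place of -0.15.

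Whole jejunum, the middle stretch of the small intestine, was sequenced in 12 libraries from piglets, 3 in each of 4 groups. W_Con were sucking piglets of control sows at 21 days of age, the day of weaning, and PW_Con were weaned piglets of control sows at 28 days, 7 days after weaning. W_Res and PW_Res were the piglets of the same ages from sows whose diet held 300 mg/kg resveratrol, a plant polyphenol, from 20 days after breeding until the end of lactation. Piglets were exchanged between litters of the same maternal diet. Weaning and 1 more week of age cannot be told apart in this design, and no group of unweaned piglets at 28 days was analysed here.

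Toll-like receptors and NOD receptors recognise molecules that are common to microbes. TLR2, TLR4 and TLR5 sit on the cell surface and bind bacterial lipoproteins, lipopolysaccharide and flagellin, while TLR3, TLR8 and TLR9 sit in endosomes and bind double-stranded RNA, single-stranded RNA and DNA with unmethylated CpG. NOD1 and NOD2 bind fragments of bacterial peptidoglycan in the cytosol and signal through the kinase RIPK2. All Toll-like receptors except TLR3 can signal through MYD88 to NF-kappaB and to interferon regulatory factors, and in the intestine the receptors are found both in epithelial cells and in immune cells of the mucosa.

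No member differed between groups at an adjusted p under 0.05 in any of 6 comparisons. Among the 6 members tested, the smallest adjusted p-values by limma were those of TLR8, lower in W_Res than in W_Con (0.293), and of MYD88 (0.364) and TLR9 (0.399), both higher in PW_Con than in W_Con by point estimate. TLR2 and NOD1 were under the minimum level for testing. In a fit without that minimum their smallest adjusted p was 0.193 (limma), for NOD1, lower in PW_Res than in W_Res. The values of TLR9 did not overlap between the groups for weaning in control litters, as for 24.9% of all gene names tested. Those of TLR3 and TLR8 did not overlap for resveratrol at 21 days, as for 21%. NOD1 did not overlap for resveratrol at 21 days or for weaning in resveratrol litters, where the share was 21.7%. The cell number behind a bulk value is unknown, so fewer cells that express a gene and less RNA per cell cannot be told apart.

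The libraries were alike in scale, with a summed FPKM of 313171 to 334469, but the number of reads behind any value is unknown because only FPKM were used. Correlations of log2 values over all tested gene names ran from 0.881 to 0.961 within groups and from 0.860 to 0.944 between groups, with medians of 0.932 and 0.922. Enterocyte markers were high in every library (7 of 9 markers found, summed FPKM 2231 to 8492). FABP6, a bile acid binding protein typical of the ileum, ran from 1.70 to 24110 FPKM, so the libraries differ in how much of a distal gene program they hold. Library W_Res 2 had the highest smooth muscle sum (3855, against 148 to 1756 in the others), and libraries W_Res 2 and PW_Con 2 had the highest B cell sums (241 and 290, against 147 to 214). Neutrophil markers were near 0 in all libraries, with a summed FPKM of 0 to 2.77. The records call the libraries of a group biological replicates, and the methods of the study, which cover the control piglets, took 1 male per litter at each age. Which litter a library came from is not given in the sources used here. The records and those methods also differ on the breed and on whether piglets changed pens at weaning.

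MYD88 was by far the most abundant member, with a mean of 11.1 ± 2.75 FPKM (SD, n = 12), above 78.7% of all gene names. TLR3 followed at 2.87 ± 0.670, TLR8 at 2.05 ± 1.24, TLR4 at 1.79 ± 0.715 and TLR5 at 1.34 ± 0.329 FPKM. The lowest levels were those of TLR9 at 0.601 ± 0.478, TLR2 at 0.499 ± 0.617 and NOD1 at 0.164 ± 0.104 FPKM. NOD1 stood above only 15.8% of all gene names. Between neighbours in this order, MYD88 exceeded TLR3 by 8.21 FPKM with an SD of the difference of 2.64 and was higher in 12 of 12 libraries. TLR5 exceeded TLR9 by 0.734 with an SD of 0.705 and was higher in 10 of 12 libraries. For the other neighbours the mean difference was smaller than its SD, and genes that are not neighbours in this order were not compared. The highest library exceeded the lowest 2.08-fold for TLR5, 2.25-fold for TLR3, 3.28-fold for MYD88, 3.57-fold for TLR4, 14.1-fold for TLR9 and 14.2-fold for NOD1, while TLR2 and TLR8 were listed at 0 in 1 library each.

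**Figure D1:**
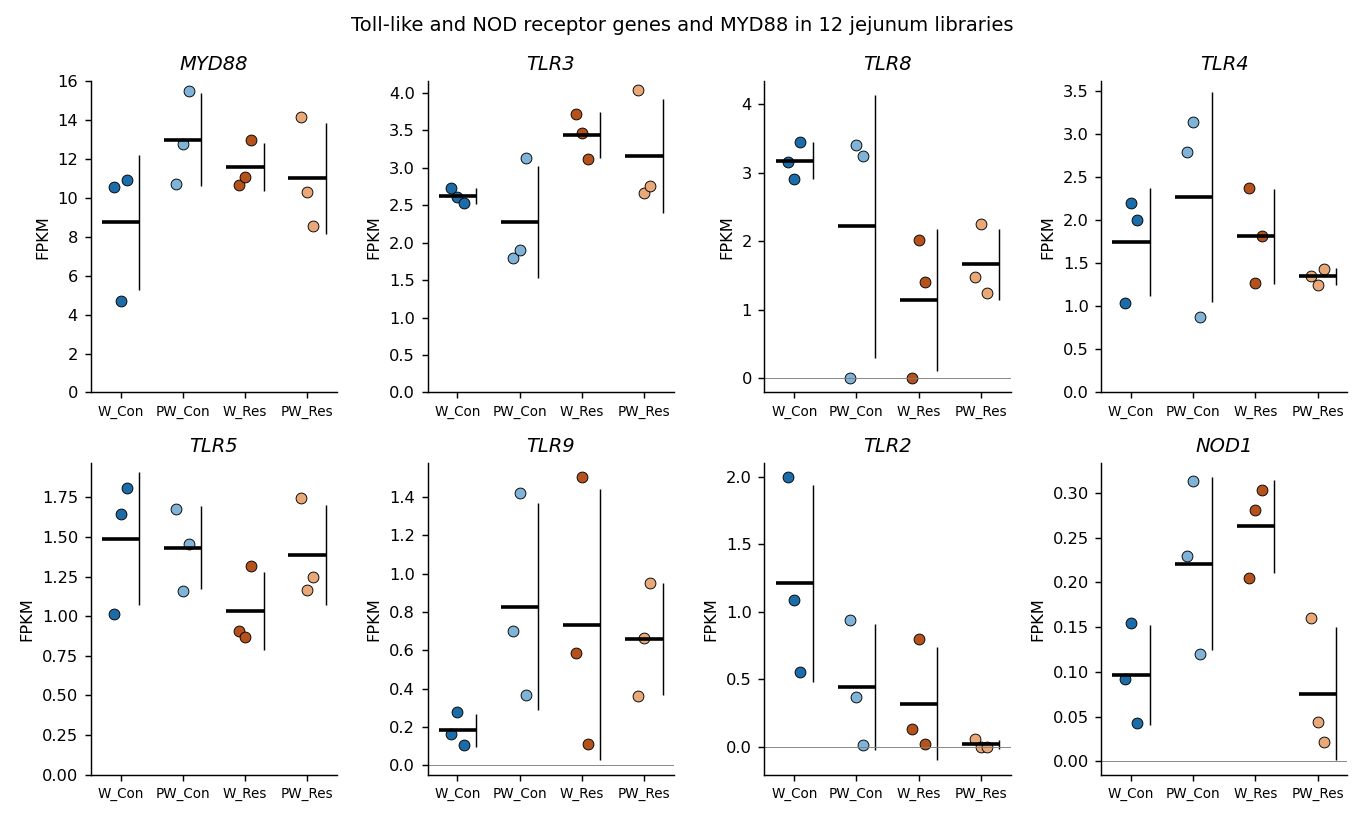
Level of the 8 members found, in FPKM on a separate linear axis for each gene, in the groups W_Con, PW_Con, W_Res and PW_Res; points are single libraries, horizontal bars the group means and vertical lines the SD (n = 3). TLR9 had its lowest mean in W_Con, TLR8 was 0.00822 in 1 PW_Con library and 0 in 1 W_Res library, and TLR2 was below 0.06 FPKM in all 3 PW_Res libraries.

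Each comparison was made with limma on log2(FPKM + 1), a scale on which the change of a gene below about 1 FPKM is understated. Gene names with a mean of at least 0.5 FPKM were tested, 12886 in all, and p-values were adjusted over all of them by the Benjamini-Hochberg method. Of the members, 6 passed this minimum and 2 (TLR2 at 0.499 FPKM and NOD1) did not. For the 6 members tested, 0 had an unadjusted P under 0.05, 0 met the standard of the study (unadjusted P under 0.05 with an absolute log2 fold change over 1), and 0 had an adjusted p under 0.05 in any comparison.

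These counts of 0 stand against the following shares of all gene names tested. For weaning in control litters (PW_Con against W_Con), 8.11% of gene names were higher and 7.21% lower at an unadjusted P under 0.05, 3.1% met the standard of the study, and 0% had an adjusted p under 0.05 although 1974 names had an unadjusted P under 0.05. For weaning in resveratrol litters (PW_Res against W_Res) the shares were 3.4% higher, 14.2% lower, 4.94% by the standard and 0% adjusted, with 2274 names at an unadjusted P under 0.05. With the weaning effect averaged over both diets they were 6.57% higher, 12.5% lower, 1.42% by the standard and 0.0776% adjusted (10 names). For resveratrol at 21 days (W_Res against W_Con) they were 13% higher, 5.45% lower, 4.77% by the standard and 0.0466% adjusted (6 names), and for resveratrol at 28 days (PW_Res against PW_Con) 2.51% higher, 5.25% lower, 1.55% by the standard and 0% adjusted, with 1000 names at an unadjusted P under 0.05. For the difference of the weaning effect between diets they were 3.31% higher, 10.4% lower, 7.76% by the standard and 0% adjusted, with 1770 names at an unadjusted P under 0.05. At background shares of this size, a count of 0 among 6 genes is near the background.

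Groups of 3 that did not overlap were also common in the table, at 24.9% of gene names for weaning in control litters, 21.7% for weaning in resveratrol litters, 21% for resveratrol at 21 days and 17.2% for resveratrol at 28 days. Among the 6 members tested, the values of 1 did not overlap for weaning in control litters (TLR9), of 0 for weaning in resveratrol litters, of 2 for resveratrol at 21 days (TLR3 and TLR8) and of 0 for resveratrol at 28 days. Point estimates were split evenly for both weaning comparisons (3 higher and 3 lower). They were 4 higher and 2 lower for resveratrol at 21 days, and 1 higher and 5 lower for resveratrol at 28 days. The members' median log2 difference was 0.09 for weaning in control litters against a median of -0.01 over all gene names, -0.04 against -0.15 for weaning in resveratrol litters, 0.17 against 0.08 for resveratrol at 21 days and -0.07 against -0.07 for resveratrol at 28 days. Comparisons that share a group, such as weaning in control litters and resveratrol at 21 days, which both rest on W_Con, are not independent of each other.

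**Figure D2:**
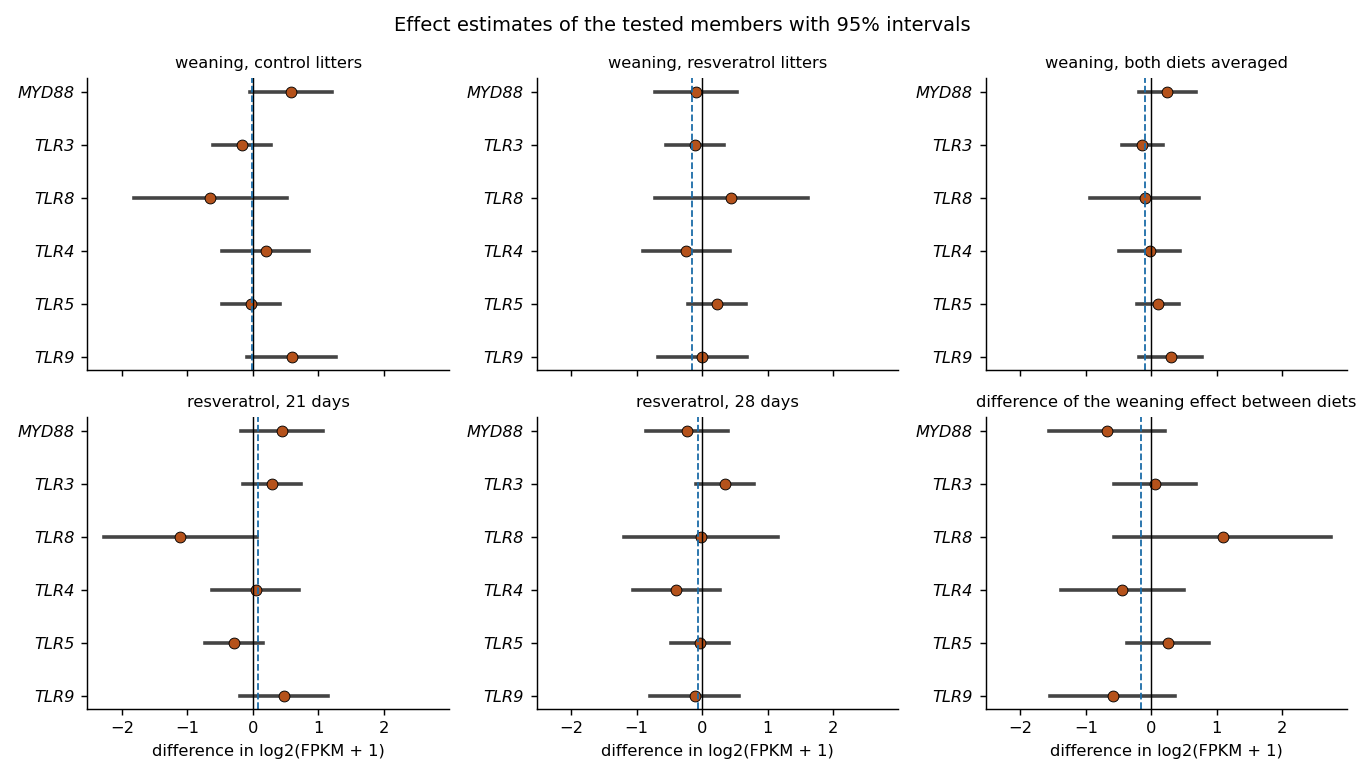
Log2 difference on the log2(FPKM + 1) scale with its 95% interval for the 6 members tested, in each of the 6 comparisons; the dashed line is the median of all 12886 gene names in that comparison. Each interval includes 0, and the point farthest from 0 is that of TLR8 for resveratrol at 21 days (-1.11).

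TLR3, the endosomal receptor for double-stranded RNA, had the highest mean among the receptors found. Its level was 2.73, 2.61 and 2.53 FPKM in W_Con, and 3.72, 3.47 and 3.12 FPKM in W_Res. At 28 days it was 1.79, 1.90 and 3.13 FPKM in PW_Con and 4.03, 2.67 and 2.76 FPKM in PW_Res. All W_Res libraries were above all W_Con libraries, while at 28 days library PW_Con 3 lay inside the range of PW_Res. The means were 2.62 ± 0.104 in W_Con, 3.44 ± 0.304 in W_Res, 2.27 ± 0.745 in PW_Con and 3.15 ± 0.762 in PW_Res (SD, n = 3), a ratio of 1.31 between the diets at 21 days and 1.39 at 28 days. The log2 difference was 0.29 at 21 days (limma, SE 0.20, 95% interval -0.15 to 0.73, adjusted p = 0.469) and 0.35 at 28 days (limma, SE 0.20, 95% interval -0.09 to 0.79, adjusted p = 0.706). An exact two-sided permutation test gave p = 0.1 for TLR3 at 21 days, the smallest value that 3 against 3 libraries allow. Without library PW_Con 3 the 28-day difference was 0.53 (limma, adjusted p = 0.805), and without library PW_Res 1, the highest, it was 0.21 (limma, adjusted p = 0.829). The weaning difference of TLR3 was -0.17 in control litters (limma, adjusted p = 0.764) and -0.11 in resveratrol litters (limma, adjusted p = 0.821, and 0.06 once libraries were rescaled by the median of ratios).

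TLR8 had the largest difference between diets among the members tested, on the log2(FPKM + 1) scale, while the ratio of the means at 21 days was larger for TLR9 (4.01) and for TLR2 (3.79). It measured 3.16, 2.91 and 3.46 FPKM in W_Con and 0, 2.02 and 1.40 FPKM in W_Res, and the highest W_Res library lay below the lowest W_Con library. In weaned piglets it was 0.00822, 3.41 and 3.24 FPKM in PW_Con and 1.49, 2.25 and 1.25 FPKM in PW_Res, where the groups overlapped because of library PW_Con 1. The mean was 2.79-fold higher in W_Con (3.18 ± 0.273) than in W_Res (1.14 ± 1.03). The log2 difference was -1.11 (limma, SE 0.53, 95% interval -2.28 to 0.06, adjusted p = 0.293), with an exact permutation p of 0.1. Leaving out library PW_Con 1, which is in neither group but enters the shared estimate of the spread, left the difference as it was and gave the smallest adjusted p for it among the libraries left out (limma, adjusted p = 0.182). Leaving out library W_Res 1, the one listed at 0, gave a difference of -0.63 (limma, adjusted p = 0.507). At 28 days the log2 difference was -0.02 (limma, adjusted p = 0.997), and without library PW_Con 1 it was -0.72, with no overlap left (limma, adjusted p = 0.760). The weaning effect on TLR8 was -0.65 in control litters (limma, adjusted p = 0.626) and 0.44 in resveratrol litters (limma, adjusted p = 0.701), and these differed by 1.09 (limma, SE 0.76, adjusted p = 0.534). Each rests on 1 library near 0. Without PW_Con 1 the control effect was 0.05 and the difference 0.39, and without W_Res 1 the resveratrol effect was -0.03 and the difference 0.61.

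The name TLR8 covers 2 loci of the table. One lists 3 Ensembl transcripts and held 7.49% of the summed FPKM, and the other is a single assembled transcript with no Ensembl identifier and held 92.5%. In the annotated locus the values were 0.0310, 0.00717 and 1.04 FPKM in W_Con, 0.00822, 0.372 and 0 in PW_Con, 0, 0.0537 and 0 in W_Res, and 0.320, 0.00682 and 0 in PW_Res. The annotated locus was therefore close to 0 in most libraries, and its mean of 0.154 FPKM is under the minimum for testing, so no TLR8 test exists on the annotated locus alone. The assembled locus measured 3.13, 2.91 and 2.41 FPKM in W_Con and 0, 1.96 and 1.40 FPKM in W_Res. It was listed at 0 in 2 libraries, PW_Con 1 and W_Res 1, and an exact 0 in a table of estimated FPKM can also be a transcript that was not assembled or assigned in that library. The difference between W_Con and W_Res thus rests on a transcript that carries the gene's name but no Ensembl identifier. Macrophages and monocytes express TLR8, and their markers (9 of 13 tested) had summed FPKM of 318 to 387 in W_Con and 378 to 870 in W_Res, with 1 of 9 higher and 1 lower at an unadjusted P under 0.05. Single markers differed in direction, since CD86 was 15.6, 8.83 and 17.6 FPKM in W_Con and 6.60, 8.50 and 8.34 in W_Res, while SPI1 was 11.7, 6.88 and 7.68 in W_Con and 15.3, 15.5 and 13.1 in W_Res, both without overlap. In the same comparison 4 of 8 T cell markers were lower (summed FPKM 125 to 165 in W_Con and 43.1 to 74.8 in W_Res) and 4 of 5 smooth muscle markers were higher (148 to 621 and 644 to 3855) at an unadjusted P under 0.05, and their part in the result was not tested. At that threshold 13% of all gene names were higher and 5.45% lower. Without libraries W_Res 2 and PW_Con 2 the TLR8 difference was -1.43 (limma, adjusted p = 0.394).

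**Figure D3:**
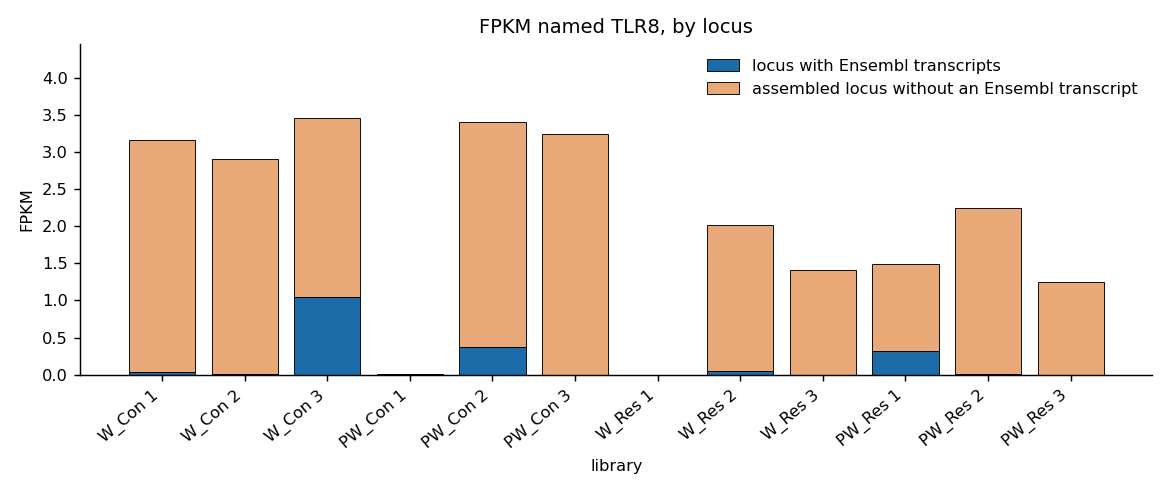
FPKM of TLR8 in each of the 12 libraries, stacked by locus: the annotated locus with Ensembl transcripts and the assembled locus without one. The assembled locus holds nearly all of the signal in most libraries, and libraries PW_Con 1 and W_Res 1 show almost none from either.

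TLR9, the receptor for CpG DNA, was low in W_Con at 0.166, 0.277 and 0.107 FPKM and reached 0.699, 1.42 and 0.366 FPKM in PW_Con. In W_Res it was 0.588, 1.50 and 0.110 FPKM, and in PW_Res 0.364, 0.663 and 0.952 FPKM. The 3 W_Con libraries lay below every PW_Con and every PW_Res library, whereas W_Res spanned nearly the whole range of the gene. The mean was 4.53-fold higher in PW_Con (0.829 ± 0.540) than in W_Con (0.183 ± 0.0863), and 4.01-fold higher in W_Res (0.734 ± 0.708) than in W_Con. The log2 difference for weaning in control litters was 0.59 (limma, SE 0.31, 95% interval -0.09 to 1.27, adjusted p = 0.399), with an exact permutation p of 0.1. For weaning in resveratrol litters it was 0.00 (limma, adjusted p = 0.999), and the difference between the diets was -0.59 (limma, SE 0.44, adjusted p = 0.563). For resveratrol at 21 days it was 0.47 (limma, adjusted p = 0.434).

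The 2 libraries with the most TLR9, W_Res 2 and PW_Con 2, were also the highest 2 in the summed markers of macrophages and monocytes (870 and 768) and of B cells (241 and 290), cells in which TLR9 is expressed. Library PW_Con 1 had nearly the same macrophage and monocyte sum (766) with a TLR9 level of 0.699 FPKM. B cell sums were 147 to 156 in W_Con, 164 to 290 in PW_Con and 177 to 241 in W_Res. Macrophage sums were 318 to 387, 288 to 768 and 378 to 870 in these groups. For weaning in control litters 1 of 7 B cell markers was higher at an unadjusted P under 0.05. Of 9 macrophage markers 2 were higher and 1 lower, against 8.11% and 7.21% of all gene names. The part of these cells in the TLR9 result was not tested. Without library PW_Con 2 the weaning difference of TLR9 in control litters was 0.37 (limma, adjusted p = 0.729), and without library W_Res 2 the difference between diets at 21 days was 0.17 (limma, adjusted p = 0.851). With both left out, the mean of TLR9 was under 0.5 FPKM and it was not tested.

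Among the cell surface receptors, TLR4, which binds lipopolysaccharide, measured 1.04, 2.20 and 2.00 FPKM in W_Con and 2.79, 3.13 and 0.877 FPKM in PW_Con. Its level was 2.36, 1.26 and 1.81 FPKM in W_Res and 1.35, 1.25 and 1.44 FPKM in PW_Res. The PW_Res libraries were close together (1.35 ± 0.0948) and the PW_Con libraries held both the highest and the lowest value of the gene (2.27 ± 1.21). The log2 difference between them was -0.40 (limma, SE 0.30, 95% interval -1.06 to 0.27, adjusted p = 0.787). Its size depends on which PW_Con library is left out, being -0.75 without PW_Con 3 (limma, adjusted p = 0.776), -0.25 without PW_Con 1 (limma, adjusted p = 0.924) and -0.19 without PW_Con 2 (limma, adjusted p = 0.957). The other TLR4 differences were 0.20 for weaning in control litters (limma, adjusted p = 0.835), -0.24 for weaning in resveratrol litters (limma, adjusted p = 0.711) and 0.04 for resveratrol at 21 days (limma, adjusted p = 0.957).

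CD14 and LY96 (MD-2) hand lipopolysaccharide to TLR4 and complete its binding site. CD14 ran from 0 to 4.35 FPKM and LY96 from 0.235 to 2.30 FPKM, so the whole receptor complex was at a low level in these libraries. CD14 was highest in library PW_Con 1 and listed at 0 in library W_Res 2. LY96 was 1.47, 2.30 and 1.08 FPKM in PW_Con and 0.854, 0.379 and 0.235 FPKM in PW_Res, a log2 difference of -0.81 (limma, adjusted p = 0.616), and these groups did not overlap. LBP, the serum protein that delivers lipopolysaccharide to CD14, was far more abundant, at 89.2, 52.0 and 76.6 FPKM in W_Con, 26.6, 37.6 and 54.7 in PW_Con, 55.8, 183 and 130 in W_Res and 48.1, 52.1 and 34.4 in PW_Res. The W_Res libraries were above all PW_Res libraries, and the control groups overlapped slightly. The log2 difference was -1.09 for weaning averaged over the diets (limma, SE 0.29, adjusted p = 0.115). With a library-size covariate it was -0.68 (ordinary linear model, adjusted p = 0.749).

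TLR5, the flagellin receptor, had the smallest ratio of its highest to its lowest library. It measured 1.01, 1.65 and 1.81 FPKM in W_Con, 1.68, 1.16 and 1.46 in PW_Con, 0.909, 0.870 and 1.32 in W_Res, and 1.75, 1.16 and 1.25 in PW_Res. Each pair of groups overlapped, and W_Res had the lowest mean (1.03 ± 0.248). The log2 difference was -0.02 for weaning in control litters (limma, adjusted p = 0.977), 0.23 for weaning in resveratrol litters (limma, adjusted p = 0.584), -0.29 for resveratrol at 21 days (limma, adjusted p = 0.477) and -0.03 for resveratrol at 28 days (limma, adjusted p = 0.983).

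TLR2, the receptor for bacterial lipoproteins, was 2.00, 1.09 and 0.552 FPKM in W_Con and 0.941, 0.373 and 0.0123 FPKM in PW_Con. It was 0.135, 0.801 and 0.0238 FPKM in W_Res and 0.0566, 0.00215 and 0 FPKM in PW_Res. W_Con held the highest level, W_Res overlapped both control groups, and PW_Res held almost none. The group means were 1.21 ± 0.730 in W_Con, 0.442 ± 0.468 in PW_Con, 0.320 ± 0.421 in W_Res and 0.0196 ± 0.0321 in PW_Res. In the same order of groups the summed leukocyte markers were 56.6 to 86.6, 50.1 to 167, 38.4 to 57.8 and 29.0 to 50.4 FPKM. The T cell sums were 125 to 165, 87.8 to 153, 43.1 to 74.8 and 36.6 to 95.6. The part of these cells in the TLR2 values was not tested. TLR2 was just under the minimum level for testing. In the fit of all 17049 gene names without that minimum, its log2 difference was -0.74 for resveratrol at 21 days (limma, adjusted p = 0.248) and -0.47 for weaning averaged over the diets (limma, adjusted p = 0.302).

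TLR6 and TLR10, which like TLR1 are close relatives of TLR2 and lie next to each other in the genome, were measured at 0.524 to 4.02 and at 0 to 0.591 FPKM. Reads that these genes share may have been divided between them, so their levels are uncertain. Neither TLR6 nor TLR7, an endosomal receptor for single-stranded RNA (0.0208 to 1.99 FPKM), had an unadjusted P under 0.05 in any comparison, and TLR10 was under the minimum level.

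NOD1 had the lowest mean over the 12 libraries, although TLR2 was lower in PW_Res (0.0196 against 0.0755 FPKM). Its level was 0.0924, 0.154 and 0.0425 FPKM in W_Con, 0.229, 0.313 and 0.120 in PW_Con, 0.204, 0.281 and 0.304 in W_Res, and 0.161, 0.0439 and 0.0220 in PW_Res. The direction of the difference between ages was opposite in the diets, with the mean 2.29-fold higher in PW_Con than in W_Con and 3.48-fold higher in W_Res than in PW_Res. W_Res lay above W_Con and above PW_Res without overlap. The smooth muscle sum also lay higher in W_Res than in those groups without overlap, at 644 to 3855 in W_Res, 148 to 621 in W_Con and 192 to 619 in PW_Res, with 4 of 5 markers higher at 21 days in W_Res and 4 of 5 lower at weaning in resveratrol litters at an unadjusted P under 0.05. The matching shares of all gene names were 13% higher and 14.2% lower. The endothelial sum was 37.5 to 60.4 in W_Res, 18.0 to 47.4 in W_Con and 19.7 to 29.2 in PW_Res, and the part of these cells in the NOD1 values was not tested. In the fit without a minimum level the log2 difference was 0.15 for weaning in control litters (limma, adjusted p = 0.425), -0.23 for weaning in resveratrol litters (limma, adjusted p = 0.193) and -0.39 for the difference between them (limma, SE 0.10, adjusted p = 0.289). At levels of 0.0220 to 0.313 FPKM the reads behind each value are few and their number is unknown. RIPK2, the kinase that NOD1 and NOD2 need, was listed at 0 in 11 of 12 libraries and at 1.15 FPKM in library W_Res 3.

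MYD88 was 10.6, 4.72 and 10.9 FPKM in W_Con and 10.7, 12.8 and 15.5 FPKM in PW_Con. In W_Res it was 10.7, 11.1 and 13.0 FPKM, and in PW_Res 14.2, 10.3 and 8.56 FPKM. Library W_Con 2 had less than any other library, and the remaining 11 libraries ran from 8.56 to 15.5 FPKM. The mean was 8.74 ± 3.48 in W_Con and 13.0 ± 2.38 in PW_Con, a ratio of 1.49. The log2 difference was 0.58 (limma, SE 0.29, 95% interval -0.04 to 1.21, adjusted p = 0.364), and without library W_Con 2 it was 0.24 (limma, adjusted p = 0.728). In resveratrol litters it was -0.09 (limma, adjusted p = 0.899, and 0.11 once libraries were rescaled by the median of ratios), and the effects in the diets differed by -0.67 (limma, SE 0.40, adjusted p = 0.470). For resveratrol it was 0.44 at 21 days (limma, adjusted p = 0.432) and -0.23 at 28 days (limma, adjusted p = 0.889). Without library W_Con 2 the 21-day value was 0.09 and the difference between the diets in the weaning effect -0.33. The main MYD88 locus, with 12 transcripts of which 3 are from Ensembl, held 97.6% of the summed FPKM, so a second locus of 1 assembled transcript (0 to 1.92 FPKM) had little weight. The summed markers of the proximal small intestine were 3453 to 12657 FPKM in W_Con and 943 to 2849 in PW_Con. FABP1, which the paper reports as lower after weaning, made up most of this sum. Over the 12 libraries its median was 3444 FPKM, against 3581 for the sum. Plasma cell and B cell sums did not overlap between W_Con and PW_Con either. The part of these cells and of the gut segment in the MYD88 result was not tested.

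The genes around these receptors were described from 6 lists: receptor partners, adaptors and kinases, NF-kappaB and IRF factors, inhibitors, other innate sensors, and NF-kappaB target cytokines and chemokines. Of their members, 69 were tested and 0 had an adjusted p under 0.05 in any comparison. At an unadjusted P under 0.05, 13 were higher and 2 lower for weaning in control litters, 6 and 8 for weaning in resveratrol litters, 13 and 5 with the diets averaged, 9 and 6 for resveratrol at 21 days, 2 and 13 for resveratrol at 28 days and 0 and 9 for the difference of the weaning effect between diets. The matching shares of all gene names were 8.11% higher and 7.21% lower for weaning in control litters, and 3.4% and 14.2% in resveratrol litters. They were 6.57% and 12.5% with the diets averaged, and 13% and 5.45% for resveratrol at 21 days. For resveratrol at 28 days they were 2.51% and 5.25%, and for the difference between diets 3.31% and 10.4%. The smallest adjusted p in the lists was 0.0543, for weaning averaged over the diets.

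**Figure D4:**
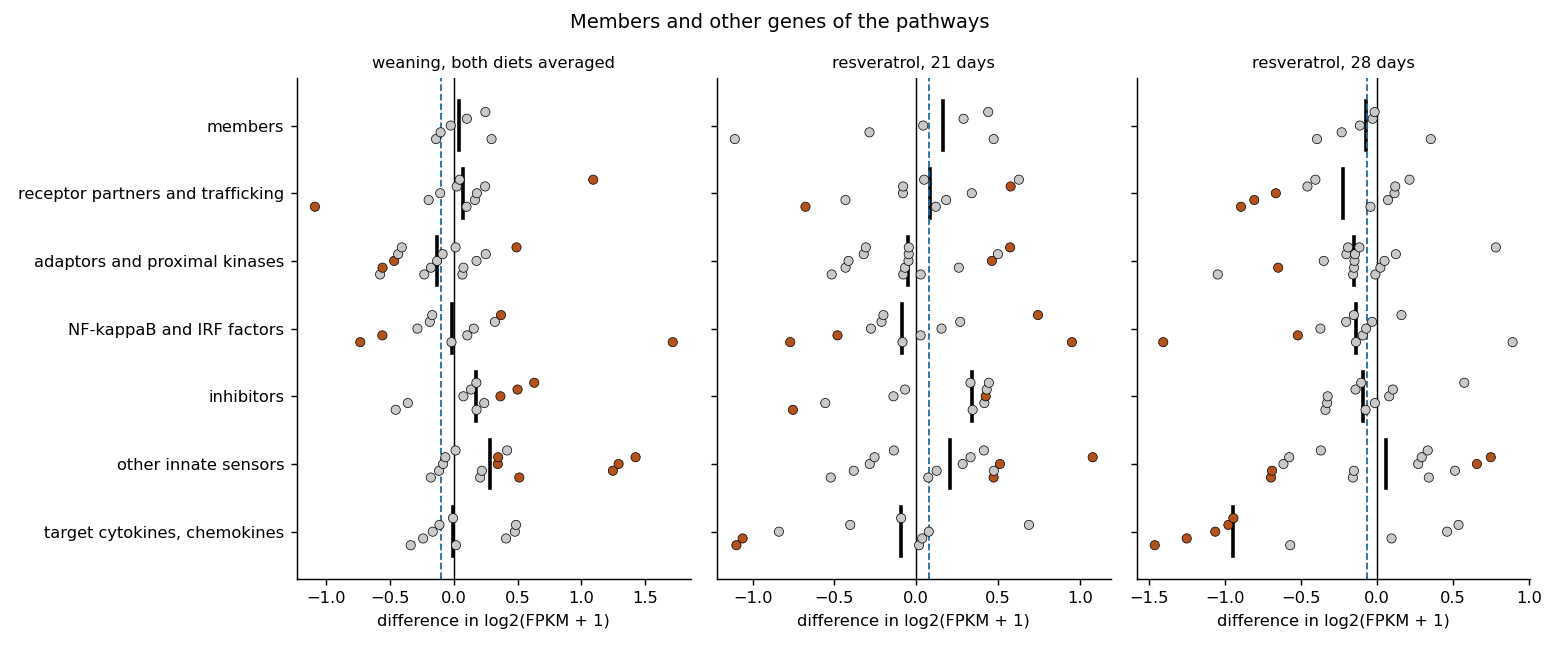
Log2 difference of the members and of each gene in 6 pathway lists, for weaning averaged over both diets, resveratrol at 21 days and resveratrol at 28 days; each point is 1 gene, filled orange where the unadjusted P is under 0.05, with the list's median as a black bar and the median of all gene names as a dashed line. No member is filled. Of the 9 target cytokines and chemokines 5 are filled below 0 at 28 days, where 5.25% of all gene names were lower at that threshold.

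UNC93B1 carries the endosomal Toll-like receptors out of the endoplasmic reticulum. It is listed in the table under an Ensembl identifier, ENSSSCG00000012893, and was matched by that identifier. Its level was 9.21, 10.8 and 13.5 FPKM in W_Con and 37.5, 33.9 and 19.5 in PW_Con, 21.3, 16.2 and 14.2 in W_Res and 29.0, 35.3 and 31.1 in PW_Res. Weaned piglets were above sucking piglets without overlap in both diets. The log2 difference was 1.33 in control litters (limma, SE 0.25, adjusted p = 0.0882), 0.86 in resveratrol litters (limma, adjusted p = 0.155) and 1.09 averaged (limma, SE 0.18, adjusted p = 0.0543).

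IRF7, the interferon regulatory factor that acts downstream of MYD88 and the endosomal receptors, was 28.5, 25.5 and 34.2 FPKM in W_Con and 139, 111 and 65.5 in PW_Con, 76.7, 26.1 and 93.6 in W_Res and 199, 173 and 189 in PW_Res. No weaned piglet overlapped the sucking piglets of its diet. The log2 difference was 1.72 averaged over the diets (limma, SE 0.29, adjusted p = 0.0543). DHX58 (LGP2), a cytosolic sensor of viral RNA, followed the same order of groups at 8.54, 8.16 and 11.4 FPKM in W_Con, 36.9, 24.5 and 15.3 in PW_Con, 21.9, 9.11 and 11.5 in W_Res and 37.2, 49.4 and 37.7 in PW_Res, with an averaged log2 difference of 1.43 (limma, adjusted p = 0.0543). DDX58 (RIG-I), a sensor of the same family, had an averaged difference of 1.25 (limma, adjusted p = 0.180). With a library-size covariate it was 0.38 (ordinary linear model, adjusted p = 0.922). After libraries were rescaled by the median of ratios, UNC93B1, IRF7 and DHX58 had an adjusted p of 0.0333 for this comparison (limma), and over all alternatives it ran from 0.0240 to 0.460 for UNC93B1, from 0.0333 to 0.534 for IRF7 and from 0.0219 to 0.511 for DHX58. With a library-size covariate the weaning difference in resveratrol litters alone was 0.48 for IRF7 and 0.80 for DHX58 (ordinary linear model, adjusted p = 0.9997 for both). Without it the values were 1.69 and 1.56. For the receptors that UNC93B1 carries, the averaged weaning differences were -0.14 for TLR3 (limma, adjusted p = 0.619), -0.10 for TLR8 (limma, adjusted p = 0.904) and 0.30 for TLR9 (limma, adjusted p = 0.476), and whether they differ from that of UNC93B1 was not tested.

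PGLYRP3, a peptidoglycan recognition protein, was 0.970, 0.00986 and 0.896 FPKM in W_Con, 4.65, 3.41 and 2.68 in PW_Con, 0.608, 0.527 and 2.07 in W_Res and 3.91, 2.11 and 3.37 in PW_Res. Weaned piglets were higher in both diets without overlap, with an averaged log2 difference of 1.29 (limma, adjusted p = 0.0629, from 0.0345 to 0.503 over the alternatives). Beside the weaning differences of UNC93B1, IRF7, DHX58 and PGLYRP3 in resveratrol litters, other marker sums were lower in PW_Res than in W_Res without overlap. They included those of smooth muscle (4 of 5 markers lower at an unadjusted P under 0.05, sums as given for NOD1), fibroblasts (3 of 5, 467 to 1424 and 198 to 419), endothelium (3 of 3) and dendritic cells (2 of 5, 7.17 to 12.8 and 5.40 to 7.03). The neutrophil sum, near 0 throughout, was 1.84 to 2.77 in W_Res and 0 to 0.864 in PW_Res. At that threshold 14.2% of all gene names were lower. In control litters the sums of the proximal small intestine, plasma cells and B cells did not overlap between W_Con and PW_Con (values given with the inhibitors below). The part of all these cells in the differences of the 4 genes was not tested. PGLYRP2, an amidase that cleaves peptidoglycan, was 1.20, 1.98 and 1.60 FPKM in W_Con against 4.75, 4.86 and 3.77 in W_Res (log2 difference 1.08, limma, adjusted p = 0.105). At 28 days it was 1.75, 1.41 and 2.48 FPKM in PW_Con and 5.48, 2.35 and 3.15 in PW_Res, where the groups overlapped (0.66, limma, adjusted p = 0.592). TMEM173 (STING), which signals from cytosolic DNA, was 3.01, 3.02 and 2.20 FPKM in W_Con, 6.39, 6.14 and 6.03 in PW_Con, 3.75, 5.39 and 3.93 in W_Res and 3.20, 3.67 and 3.50 in PW_Res. It was higher after weaning in control litters by 0.95 on the log2 scale (limma, adjusted p = 0.0882) and lower by point estimate in resveratrol litters (-0.25, limma, adjusted p = 0.476).

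The median log2 difference of 10 inhibitors of the pathway tested was 0.40 for weaning in control litters, against -0.01 over all gene names. At an unadjusted P under 0.05, 8.11% of all gene names were higher and 7.21% lower in this comparison. Of the 10 inhibitors, 6 were higher and 1 lower at that threshold. The higher ones were NFKBIA (0.83), NFKBIB (0.64), NFKBIE (0.56), SIGIRR (0.61), TNIP1 (0.36) and TNIP2 (0.45), most of which hold NF-kappaB or the signal above it in check, and the lower one was NFKBIZ (-0.68), a nuclear IkappaB protein that acts as a cofactor for some target genes. In the same comparison the summed FPKM of other markers did not overlap between W_Con and PW_Con, at 3453 to 12657 and 943 to 2849 for the proximal small intestine, 37.3 to 54.8 and 57.4 to 77.4 for plasma cells and 147 to 156 and 164 to 290 for B cells. The proximal sum was mostly FABP1, as given for MYD88. Of the single markers, 3 of 8 proximal ones were lower at an unadjusted P under 0.05. At that threshold 1 of 5 plasma cell and 1 of 7 B cell markers were higher, and the part of all these in the result was not tested. In resveratrol litters 1 inhibitor was higher (NFKBIB, 0.63, limma, adjusted p = 0.152), where 3.4% of all gene names were higher at an unadjusted P under 0.05. For weaning in control litters MYD88 was higher by 0.58 without passing a test, and IRAK1, the kinase recruited by MYD88, was higher by 0.80 (limma, adjusted p = 0.113). NFKB1, which encodes the p50 subunit, was lower by point estimate at weaning in both diets, with an averaged difference of -0.73 (limma, adjusted p = 0.0868). TICAM1, the adaptor of TLR3, was not analysed here.

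Of 9 target cytokines and chemokines tested, 5 were lower and 0 higher in PW_Res than in PW_Con at an unadjusted P under 0.05. Among all gene names 5.25% were lower and 2.51% higher. The list median was -0.95 against -0.07 over all gene names. CXCL8, which attracts neutrophils, was 19.1, 6.88 and 15.9 FPKM in PW_Con and 4.28, 3.69 and 6.97 in PW_Res, where the groups overlapped slightly (log2 difference -1.25, limma, adjusted p = 0.411). CXCL2, a second neutrophil attractant, was 3.35, 1.55 and 6.13 FPKM in PW_Con and 0.226, 0.610 and 0.911 in PW_Res, without overlap (-1.46, limma, adjusted p = 0.470). Its values depend on the loci summed. For weaning in resveratrol litters its difference was -1.32 (limma, adjusted p = 0.195). With only the top locus, or only Ensembl loci, it was -0.35 (limma, adjusted p = 0.699 and 0.701). The others lower at 28 days were TNF (-0.95), CCL4 (-1.07) and CCL5 (-0.98), of which CCL4 and CCL5 attract T cells and monocytes. CCL4 and CCL5 were lower in W_Res than in W_Con as well (-1.06, limma, adjusted p = 0.141, and -1.10, limma, adjusted p = 0.166), the comparison in which the T cell marker sum was 125 to 165 in W_Con and 43.1 to 74.8 in W_Res. The part of T cells in that result was not tested.

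IRF1, an interferon regulatory factor that many of these stimuli induce, was 105, 85.0 and 99.8 FPKM in PW_Con and 33.2, 48.1 and 28.4 in PW_Res, without overlap (-1.41, limma, SE 0.31, adjusted p = 0.411). Beside these differences, the summed leukocyte markers were 50.1 to 167 FPKM in PW_Con and 29.0 to 50.4 in PW_Res, the macrophage and monocyte sum 288 to 768 and 305 to 493, and 3 of 9 macrophage and monocyte markers and 3 of 8 T cell markers were lower at an unadjusted P under 0.05. At that threshold 5.25% of all gene names were lower. The dendritic cell sum did not overlap, at 9.59 to 19.1 in PW_Con and 5.40 to 7.03 in PW_Res, with 2 of 5 markers lower. Their part in the result was not tested.

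**Figure D5:**
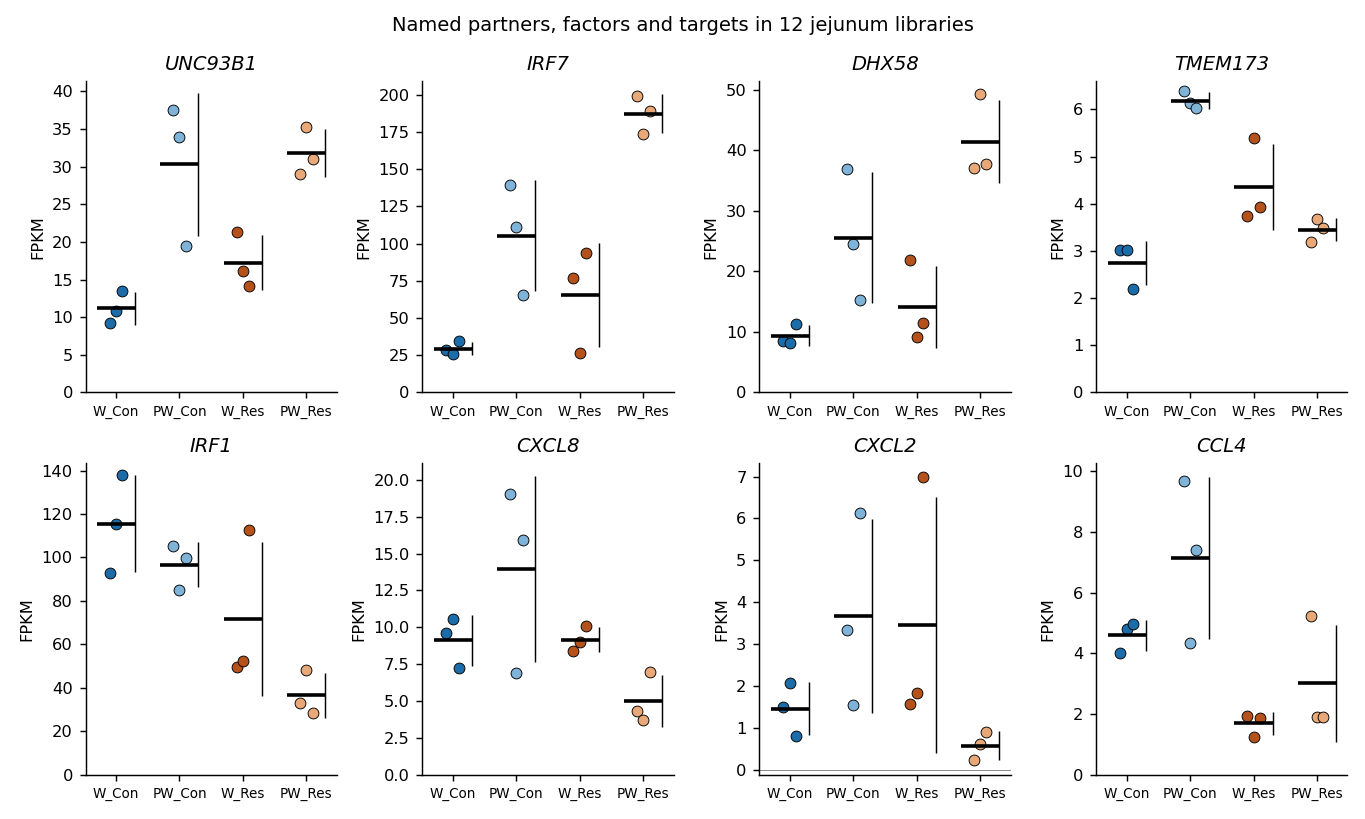
Level in FPKM, on a separate linear axis for each gene, of UNC93B1, IRF7, DHX58, TMEM173, IRF1, CXCL8, CXCL2 and CCL4 in the 4 groups; points are single libraries, bars the group means and vertical lines the SD (n = 3). UNC93B1, IRF7 and DHX58 are higher in weaned piglets of both diets, TMEM173 in those of control litters, and IRF1 and CXCL2 are lower in PW_Res than in PW_Con, none at an adjusted p under 0.05.

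No pair of members was correlated past the test across the 12 libraries, which fall in 4 groups. Over 28 pairs, Pearson's r of the log2 values ran from -0.555 to 0.479 with a median of -0.0705, and 0 pairs had a permutation P under 0.05. The pair farthest from 0 was TLR3 with TLR4 (r = -0.555, permutation P = 0.0619, adjusted p = 0.942, and Spearman's rho = -0.476, permutation P = 0.122, adjusted p = 0.778), and without the 2 libraries farthest from the median of TLR3 r was -0.410.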

How the data were processed

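Poly(A) RNA of jejunum was sequenced as paired-end libraries on an Illumina HiSeq instrument. The FPKM table was deposited by the authors as normalized values. The submitters' processing notes list HISAT2 2.0, StringTie 1.3.0 and Bowtie 0.12.2 and the builds Sscrofa10.2 and mm8, a mouse build, without stating their roles, and the methods of the study name TopHat, StringTie and Ballgown. Assembled loci without an Ensembl transcript stand beside annotated genes, and the read depth per gene is unknown, so neither counts nor counting intervals can be given. All 12 value columns were matched to samples by name.

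FPKM of entries with the same gene name were summed, gene names with a mean of at least 0.5 FPKM were kept (12886 of 17049), and log2(FPKM + 1) was fitted with limma 3.58.1 in R 4.3.3, in 1 model with the 4 groups (8 residual degrees of freedom), empirical Bayes with a trend and Benjamini-Hochberg adjustment over all gene names tested. The study's methods call a gene at unadjusted P under 0.05 with an absolute log2 fold change over 1, which is given beside the adjusted p. Single members were also compared by exact two-sided permutation of 3 against 3 libraries (smallest p 0.1), or of ages within diets (smallest p 0.005). Gene names held as Ensembl identifiers were matched through a table of gene names. No gene position or sequence is printed, since no genome of build Sscrofa10.2 was used here.

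The members, the pathway lists, the cell type markers and the tests were chosen with earlier results of these data known. All members are named, and a pathway gene where it had an adjusted p under 0.05 or met the study's standard in any comparison (at most 6 per list), besides CD14, LY96, UNC93B1, RIPK2 and TICAM1. Other genes in the lists are named after their values were seen. The procedure was tested on simulated data. Alternatives were other pseudocounts, filters, scalings, loci and designs, a replicate block and each library left out in turn. The fit with a library-size covariate was an ordinary linear model, with t-tests on its residual degrees of freedom and without empirical Bayes. Its covariate was the sum of a library's log2 values up to their upper quartile.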

Additional observations from a re-analysis of the deposited data

Results flagged for a closer look

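TMEM173 (STING), a gene of the list of other innate sensors, stood in opposite order at the 2 ages in the 2 diets. All PW_Con libraries (6.03 to 6.39 FPKM) were above all W_Con libraries (2.20 to 3.02 FPKM), and all PW_Res libraries (3.20 to 3.67 FPKM) were below all W_Res libraries (3.75 to 5.39 FPKM). The gene is listed here because of this order. Of all gene names tested, 24.9% did not overlap for weaning in control litters and 21.7% in resveratrol litters. The share that did so in opposite order was not counted. For the difference between diets 7.76% of gene names met the study's standard. The weaning effect differed between the diets by -1.20 on the log2 scale (limma, SE 0.25, adjusted p = 0.251), so the difference does not pass the correction over 12886 gene names. Over the alternatives it ran from -1.47 to -0.84 with P between 3.89e-04 and 0.00276 and an adjusted p between 0.0997 and 0.838. No member met a comparable condition among those tested, and NOD1, whose ages also stood in opposite order in the diets, was under the level for testing and overlapped in control litters.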

How the results depend on the processing

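Of 833 values of the members under the alternatives, 812 kept their side of an unadjusted P of 0.05, 21 passed it and 61 changed sign without a call. Of 615 values of the named pathway genes, 590 kept their side and 25 no longer passed. With a library-size covariate the latter include IRF7 (0.48) and DHX58 (0.80) for weaning in resveratrol litters, and DDX58 (0.38) and LBP (-0.68) for weaning averaged over the diets. They also include CCL4 (-1.15, adjusted p = 0.547) and CCL5 (-1.33, adjusted p = 0.550) for resveratrol at 21 days, by the ordinary linear model. That setting changes the test as well as the model. The adjusted p of the 21 member values ran from 0.182 to 0.805. Besides those in the report they include MYD88 for weaning in control litters without library W_Con 1 (0.75, limma, adjusted p = 0.366) or W_Con 3 (0.77, limma, adjusted p = 0.399), TLR9 without library PW_Con 3 (0.78, limma, adjusted p = 0.433), and TLR5 for weaning in resveratrol litters after quantile normalization (0.55, limma, adjusted p = 0.324). For TLR8, keeping only loci with an Ensembl transcript gave no value, and the fit on the 6 libraries of a comparison cannot give the averaged effect or the difference between diets. The cause of the following shifts was not tested.

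Gene names that met the study's standard went from 399 to 783 with a pseudocount of 0.1 for weaning in control litters, from 636 to 1237 in resveratrol litters, from 183 to 591 averaged, from 615 to 1185 for resveratrol at 21 days and from 200 to 456 at 28 days. With a library-size covariate they were 234 for weaning in resveratrol litters, 311 and 119 for resveratrol at 21 and 28 days and 318 of 1000 for the difference between diets. For weaning in resveratrol litters they were 410 after quantile normalization, 401 with Ensembl loci only and 376 without libraries W_Res 2 and PW_Con 2, a setting that also gave 398 for resveratrol at 21 days.

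Gene names with an adjusted p under 0.05 went from 0 to 41 with the covariate and 2 without those libraries for weaning in control litters. In resveratrol litters they went from 0 to 8 without a filter, 1 in the 6-library fit and 3 without those libraries. For the averaged weaning effect they went from 10 to 0 with a pseudocount of 0.1, 0 without a trend, 0 with the covariate, 4 without a filter, 4 without those libraries, 205 after the median of ratios, 27 after quantile normalization and 32 with Ensembl loci only. For resveratrol at 21 days they went from 6 to 11 without a filter, 3 after quantile normalization, 2 without those libraries, 1 with a pseudocount of 0.1, after the median of ratios, with the top locus per gene or with Ensembl loci only, and 0 in the 6-library fit or with the covariate. At 28 days they went from 0 to 1 in the 6-library fit and 3 without those libraries. For the difference between diets they went from 0 to 1 without a filter and 1 without those libraries.

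Members at an unadjusted P under 0.05, 0 in every comparison as reported, were 1 without a filter for each comparison except weaning in control litters (0) and resveratrol at 21 days (2). They were 1 after quantile normalization for weaning in resveratrol litters, the averaged effect and resveratrol at 21 and 28 days, 1 after the median of ratios for resveratrol at 28 days, and 1 in the 6-library fit or without those libraries for resveratrol at 21 days. For the difference between diets 1 passed without those libraries (TLR8, 1.77, limma, adjusted p = 0.568).

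With each library left out in turn, the names that met the standard, those with an adjusted p under 0.05 and the members past P ran, in that order, from 344 to 511, 0 to 3 and 0 to 1 for weaning in control litters, and from 385 to 1101, 0 to 130 and 0 to 0 in resveratrol litters. They ran from 153 to 255, 0 to 179 and 0 to 1 averaged, from 407 to 1017, 0 to 120 and 0 to 1 for resveratrol at 21 days, from 195 to 358, 0 to 4 and 0 to 2 at 28 days, and from 633 to 1367, 0 to 2 and 0 to 1 for the difference. Library W_Res 1 gave the highest of the adjusted counts at 21 days (120) and averaged (179), W_Res 3 gave 130 for weaning in resveratrol litters, and W_Res 2 gave the lowest counts by the standard (385 and 407).

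No pairing of the libraries by replicate number was seen: over 18 same-numbered pairs the correlation of deviations ran from -0.257 to 0.303, with 5 over 0.1. Such correlations cannot show whether same-numbered libraries came from the same litter. With a replicate block the adjusted counts were 0 for the averaged effect and 0 for resveratrol at 21 days, and 1 member, TLR8, had an unadjusted P under 0.05 at 21 days (-1.11, limma, adjusted p = 0.208). The block changed no other count by more than 1.5 times.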

Other observations

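The gene name most like each member across the 12 libraries, by Pearson's r of log2(FPKM + 1) among 11433 to 11434 gene names with a mean of at least 1 FPKM, is given as a description without a test, since the highest of that many correlations over 12 libraries is large by construction. These genes are named after their values were seen. For TLR9 it was ENSSSCG00000021886 (r = 0.949), followed by RPL32, a ribosomal protein gene (0.926). For TLR2 it was IL12RB2, a subunit of the interleukin-12 receptor (0.928), and for TLR8 it was CAP1 (0.922). The others were FAM78A for NOD1 (0.900), SGSM1 for TLR3 (0.896), ANKS1A for MYD88 (0.848), PLA2G16 for TLR5 (0.834) and TFIP11 for TLR4 (0.831). CXCL11, an interferon-induced chemokine, was second for TLR4 (0.794).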
